A study of Mus musculus with 10 samples.

Results

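The genes described here encode antimicrobial and host-defence proteins that keratinocytes and other cells of inflamed skin secrete. They are 10 of the 17016 gene symbols in the deposited table, chosen by name: the beta-defensins Defb3, Defb4, Defb6 and Defb14, the cathelicidin Camp, the protease inhibitor Slpi, the lipocalin Lcn2, and the serum amyloid A genes Saa1, Saa2 and Saa3. All 10 were present. The 10 libraries were made from whole skin RNA of BALB/c mice, which were female and 10 to 11 weeks old. Every mouse received imiquimod, a ligand of the innate receptor TLR7 that causes psoriasis-like inflammation, as a 5% cream on shaved back skin for 5 days. In 5 libraries the mice had also been given quinpirole, which activates the dopamine receptor DRD2, by 5 intraperitoneal injections over those days, and in the other 5 they had been given vehicle. Skin without imiquimod was not analysed here. The labels do not state that each library came from its own mouse. A p-value here therefore speaks only to how far these libraries spread. Whole skin mixes epidermis with dermis, fat, muscle and immune cells.

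Beta-defensins are small cationic peptides that damage microbial membranes and attract immune cells. Cathelicidin is stored in neutrophil granules and is also made by keratinocytes and fat cells. Lipocalin 2 withholds iron from bacteria by binding their siderophores, Slpi blocks neutrophil elastase and related proteases, and the serum amyloid A proteins are acute-phase apolipoproteins. In psoriasis-like skin, IL-17 and IL-22, with IL-1 and TNF, induce several of these genes in keratinocytes through the transcription factors NF-kappaB, C/EBP and STAT3.

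The 4 defensin genes lie on the plus strand of mouse chromosome 8 within 100935 bases (mm10), from the start of Defb14 at 19194357 to the end of Defb3 at 19295291. Their coding sequences are shown because, of these related neighbours, Defb6 had a higher mean RNA level with quinpirole and Defb3, Defb4 and Defb14 lower ones. The differences of Defb3, Defb6 and Defb14 did not pass adjustment in the main test given below, and Defb4 was too low to enter it. The sequences come from the GENCODE M21 transcripts, 5′ to 3′ without the stop codon, with in-frame cysteine codons in capitals.
Defb3: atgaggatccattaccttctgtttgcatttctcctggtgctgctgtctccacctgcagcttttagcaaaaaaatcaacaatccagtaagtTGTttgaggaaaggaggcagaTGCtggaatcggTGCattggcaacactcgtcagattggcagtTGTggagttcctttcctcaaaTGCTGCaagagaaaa
Defb4: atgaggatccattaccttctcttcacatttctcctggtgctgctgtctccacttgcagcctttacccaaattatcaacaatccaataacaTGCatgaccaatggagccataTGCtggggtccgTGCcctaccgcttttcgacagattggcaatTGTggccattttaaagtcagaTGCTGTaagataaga
Defb6: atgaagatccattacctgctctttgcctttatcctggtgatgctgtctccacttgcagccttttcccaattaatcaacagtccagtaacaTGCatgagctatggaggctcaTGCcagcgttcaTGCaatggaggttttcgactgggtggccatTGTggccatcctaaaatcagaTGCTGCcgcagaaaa
Defb14: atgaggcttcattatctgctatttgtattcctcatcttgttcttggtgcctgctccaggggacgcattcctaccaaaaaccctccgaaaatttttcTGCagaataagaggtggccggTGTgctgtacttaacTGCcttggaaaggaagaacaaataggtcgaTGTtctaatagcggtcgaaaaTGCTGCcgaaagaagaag
Each holds 6 cysteine codons, all within its last 120 bases, which is the cysteine pattern of the mature defensin. Defb3 and Defb6 were identical at 71.4% of aligned coding positions, Defb3 and Defb4 at 75.5%, and Defb3 and Defb14 at 58.1%. No 50-base window of the Defb3, Defb6 or Defb14 transcript occurred in a transcript of another gene. For Defb4, 23 of 405 windows occurred in Defb8 as well.

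The serum amyloid genes lie within 42.3 kb of chromosome 7, with Saa3 and Saa1 on the minus strand and Saa2 on the plus strand. The first 120 coding bases of each are shown because reads of Saa1 and Saa2 may be hard to assign. Capitals mark bases that differ from Saa1.
Saa1: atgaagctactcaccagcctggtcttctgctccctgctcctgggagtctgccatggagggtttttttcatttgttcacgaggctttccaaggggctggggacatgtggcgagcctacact
Saa2: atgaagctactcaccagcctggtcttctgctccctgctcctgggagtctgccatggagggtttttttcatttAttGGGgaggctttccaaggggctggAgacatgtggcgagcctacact
Saa3: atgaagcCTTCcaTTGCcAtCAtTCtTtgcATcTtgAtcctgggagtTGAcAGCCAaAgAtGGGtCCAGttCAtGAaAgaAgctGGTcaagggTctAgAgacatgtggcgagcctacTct
Saa2 differed from Saa1 at 5 of these 120 bases and Saa3 at 48. Over the whole coding sequence Saa1 and Saa2 were 95.1% identical. Of the 50-base windows of the Saa1 transcript, 14.8% also occurred in Saa2 or Saa3, and of those of Saa2, 13.3% in Saa1. The split of reads between Saa1 and Saa2 is therefore uncertain, while 1.78% of Saa3 windows were shared.

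Recovered reads per library ranged from 6763367 to 8361877, and values are normalised CPM, reads scaled to library size. Keratinocyte markers were abundant in every library, with a summed level of 26560 to 33540 CPM in vehicle and 23950 to 36200 with quinpirole. The libraries differed widely in hair shaft genes, whose 10 markers summed to between 0.699 and 919 CPM in vehicle and between 0.636 and 969 with quinpirole, with means of 468 and 233. They also differed in skeletal muscle markers, at 382 to 1441 CPM in vehicle and 782 to 3973 with quinpirole, and 8 of the 10 hair shaft markers were at 0 in at least 1 library.

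Compared per transcript length, the genes covered a very wide range of levels. In vehicle skin the most abundant were Defb6, at 1230 ± 354 CPM per kb (SD, n = 5), and Defb3, at 1015 ± 503, whose ranges overlapped. Lcn2 at 253 ± 118, Saa3 at 247 ± 208, Slpi at 127 ± 33.4 and Defb14 at 95.4 ± 28.4 followed, and each of these overlapped with the next. Below them stood Saa1 at 11.6 ± 5.11, Saa2 at 2.76 ± 1.69, Defb4 at 2.18 ± 1.83 and Camp at 0.714 ± 0.833. Saa1 was separate from both neighbours in this order, whereas the ranges of Saa2, Defb4 and Camp ran into each other. With quinpirole the order of means per kb was the same, but the top pair no longer overlapped: Defb6 stood at 1981 ± 769 CPM per kb and Defb3 at 269 ± 143, which overlapped with Lcn2 at 186 ± 105. The order depends on the transcript lengths used. In CPM not divided by length, Lcn2 at 170 stood above Defb3 at 73.8 with quinpirole, and Slpi at 69.0 above Saa3 at 50.15.

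**Figure D1:**
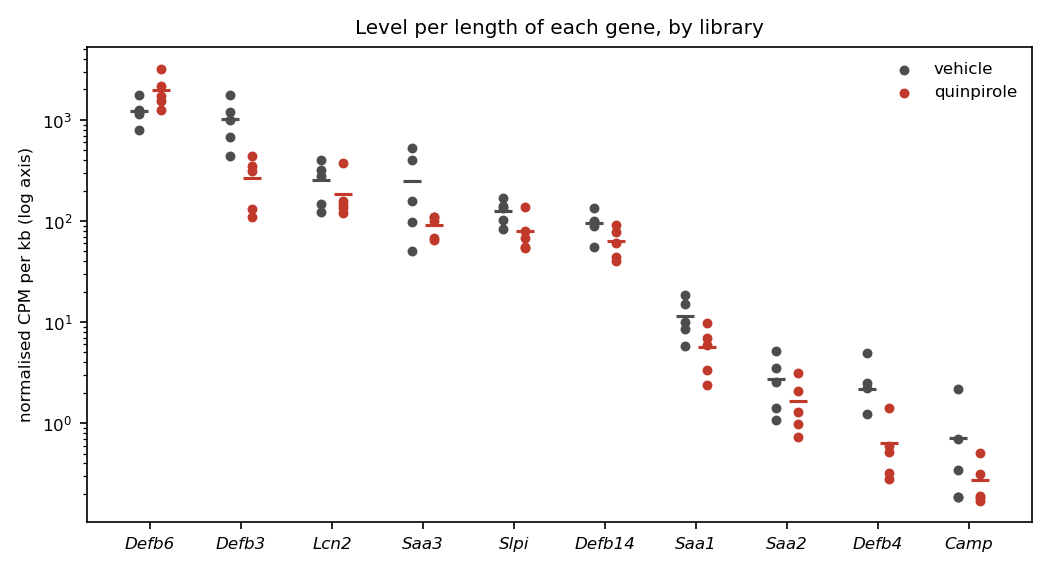
Normalised CPM per kb of transcript (log axis) for the 10 genes, ordered by the vehicle mean; points are libraries, short lines are group means of 5 libraries, and the vehicle replicate 3 value of Defb4, which was 0, is not drawn. Defb6 and Defb3 lie together in vehicle and apart with quinpirole.

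For the test between groups, 8 of the 10 genes reached 1 CPM in at least 5 libraries, and Defb4 and Camp did not. None of the 8 passed the threshold of 0.05 in limma after Benjamini-Hochberg adjustment over 14548 genes, of which 0.0206% were called. At an unadjusted p under 0.05 there were 5 of the 8, 4 with lower and 1 with higher values with quinpirole, against 11.4% of all genes in either direction and 4.47% on the lower side. Lower values were seen in 7 of 8, against 50.4% of all genes, and a log2 fold change of -0.5 or less in 5 of 8, against 3.27%. The median log2 fold change of the 8 was -0.65 and that of all genes was -0.0021. The members were chosen with earlier results of these data known, and their values are correlated with each other. These shares and medians therefore describe the list and do not test it. In none of the 8 were the groups fully separate, which was so for 2.2% of all genes. In bulk tissue, fewer cells of a type and less RNA per cell cannot be told apart.

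**Figure D2:**
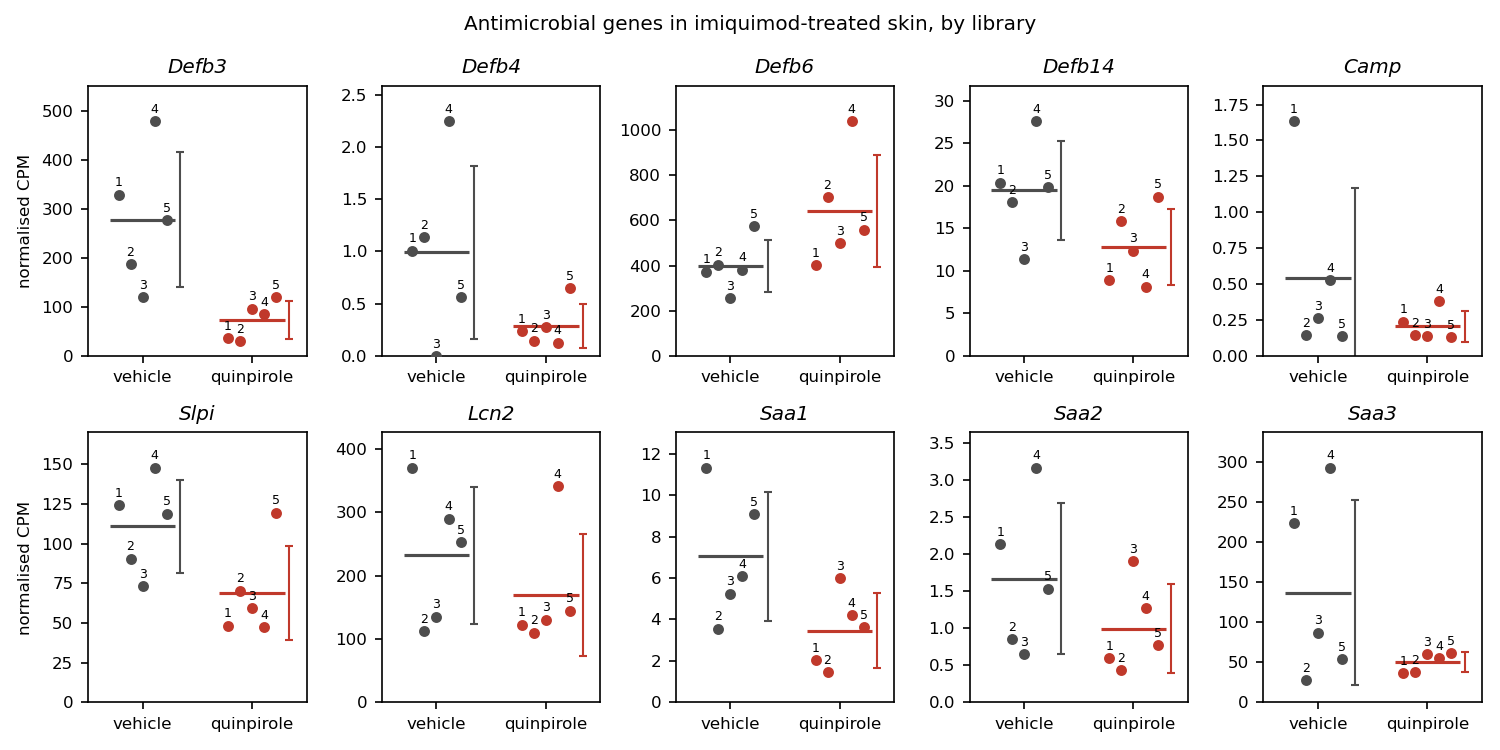
Normalised CPM of each gene in each library (linear axes from 0), with replicate numbers beside the points, group means as lines and SD as bars (n = 5 each; the lower bar of Camp in vehicle passes below 0 and is cut off). Defb3 values in 4 of 5 quinpirole libraries lie below the lowest vehicle value, while those of Defb6 reach above the highest vehicle value in 2.

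Defb3, an inducible defensin of epithelia, differed most. It measured 330, 187, 120, 480 and 277 CPM in vehicle libraries 1 to 5; the quinpirole libraries, in the same order, gave 36.4, 29.9, 96.8, 85.3 and 121. The groups touched at a single point, where quinpirole replicate 5 at 120.8 CPM stood just above vehicle replicate 3 at 120.3. The means were 279 ± 138 and 73.8 ± 39.4 CPM (SD, n = 5 each). On the scale of log2(CPM + 1) the fold change was -1.95 with SE 0.43 and a 95% interval of -2.89 to -1.001 (limma adjusted p = 0.174; unadjusted rank 64 of 14548). DESeq2, run as an alternative on recovered reads, called Defb3 lower at an adjusted p of 0.0142, as the single member among 1.51% of all genes it called. edgeR's quasi-likelihood test did not call it (adjusted p = 0.175). Leaving out single libraries gave log2 fold changes from -2.21 to -1.68.

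Defb6, a defensin known for expression in skeletal muscle as well as epithelia, was the single tested member with higher values. It measured 373, 404, 254, 382 and 573 CPM in vehicle libraries 1 to 5; the quinpirole libraries, in the same order, gave 400, 702, 499.9, 1039 and 559. All 5 quinpirole values were above the vehicle median, and replicates 2 and 4 were above every vehicle library. The means were 397 ± 114 and 639.9 ± 248 CPM, with a log2 fold change of 0.65, SE 0.26 and a 95% interval of 0.10 to 1.21 (limma adjusted p = 0.358). Quinpirole replicate 4, the highest for Defb6, was also the highest for the 6 skeletal muscle markers, of which 6 of 6 had higher values with quinpirole and none stood at 0 in any library. That library also had the highest keratinocyte marker mean, at 10.6 on the scale of log2(CPM + 1). With the muscle marker mean as a covariate, added after the data were seen, the log2 fold change of Defb6 was 0.26 (limma adjusted p = 0.902). It was 0.40 with the hair shaft mean (limma adjusted p = 0.353) and 0.45 with the keratinocyte mean (limma adjusted p = 0.613). Without quinpirole replicate 4 it was 0.46 (limma adjusted p = 0.449). The part of these cell types in the Defb6 values was not tested.

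As the mean of Defb3 was lower and that of Defb6 higher with quinpirole, neither called by limma, their ratio within a library was examined. This was done after the values were seen, and the ratio was not tested. Defb3 over Defb6, in CPM, was 0.884, 0.464, 0.473, 1.26 and 0.484 in vehicle replicates 1 to 5. It was 0.0909, 0.0425, 0.194, 0.0821 and 0.216 in quinpirole replicates 1 to 5. Every quinpirole ratio was below every vehicle ratio. The pair was picked for its opposite differences, which favours such a separation, and the share of other gene pairs that separate was not computed.

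Defb14, the mouse counterpart of human DEFB103, was less abundant. It measured 20.4, 18.1, 11.4, 27.6 and 19.9 CPM in vehicle libraries 1 to 5; the quinpirole libraries, in the same order, gave 8.92, 15.9, 12.4, 8.14 and 18.7. All 5 quinpirole values were below the vehicle median, yet the groups overlapped. The log2 fold change was -0.58 with SE 0.25 (95% interval -1.13 to -0.03, limma adjusted p = 0.408), and it was -0.31 without both libraries numbered 4, an alternative added after the data were seen.

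Defb4 was near the limit of detection, with 37 reads in all vehicle skin and 11 in all quinpirole skin. Vehicle replicate 3 had 0 reads, which allows up to 0.393 CPM (3 reads, counting error only), and vehicle replicate 4 had the most at 17 reads. The means were 0.99 ± 0.831 and 0.286 ± 0.21 CPM (n = 5 each; exact two-sided permutation p = 0.0873, adjusted 0.175 over Defb4 and Camp, 2 genes). The smallest p this design can give is 0.00794.

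Camp, at 109847379 to 109849617 on the minus strand of chromosome 9, was at the edge of detection in both groups. It had 13, 1, 2, 4 and 1 reads in vehicle replicates 1 to 5 and 2, 1, 1, 3 and 1 with quinpirole, so 13 of the 21 vehicle reads came from replicate 1. A difference was not detectable at this depth (exact two-sided permutation p = 0.23, n = 5 each, adjusted 0.23).

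Slpi, the elastase inhibitor gene at 164354070 to 164389095 on the minus strand of chromosome 2 (mm10), had lower values in most quinpirole libraries. It measured 124, 90.6, 73.4, 148 and 119 CPM in vehicle libraries 1 to 5; the quinpirole libraries, in the same order, gave 48.4, 70.3, 59.6, 47.2 and 119. Replicates 1 to 4 with quinpirole were below every vehicle library, and replicate 5 stood just above the vehicle median. The log2 fold change was -0.72 with SE 0.25 (95% interval -1.28 to -0.17, limma adjusted p = 0.301).

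Lcn2, the siderophore-binding lipocalin gene at 32384633 to 32388252 on the minus strand of chromosome 2, varied within both groups. It measured 370, 112, 135, 290 and 252.2 CPM in vehicle libraries 1 to 5; the quinpirole libraries, in the same order, gave 123, 110, 131, 341 and 145. The other quinpirole values lay within a narrow band below replicate 4, which stood at the level of the highest vehicle libraries. The log2 fold change was -0.44 with a 95% interval of -1.24 to 0.35 (limma adjusted p = 0.692), which spans fold changes from 0.422 to 1.28. It was -0.73 without quinpirole replicate 4 (limma adjusted p = 0.398), -0.67 without vehicle replicate 2 and -0.24 without vehicle replicate 1, and -1.02 with the muscle covariate.

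Among the serum amyloid genes, Saa3, the member made mainly outside the liver, spread most in vehicle skin. It measured 224, 27.9, 87.0, 293 and 54.4 CPM in vehicle libraries 1 to 5, a 10.5-fold range; the quinpirole libraries gave 36.3, 37.4, 60.1, 55.6 and 61.4, a 1.69-fold range. Every quinpirole value lay below the vehicle median, but vehicle replicate 2 was the lowest of all. The log2 fold change was -0.98 with SE 0.53 (95% interval -2.15 to 0.18, limma adjusted p = 0.509), and it was -0.59 without vehicle replicate 4 (limma adjusted p = 0.703). Without vehicle replicate 2 it was -1.43 (limma adjusted p = 0.287). On recovered reads it was -1.46 by edgeR (edgeR adjusted p = 0.307) and -1.45 by DESeq2 (DESeq2 adjusted p = 0.236).

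Saa1 measured 11.3, 3.56, 5.24, 6.08 and 9.09 CPM in vehicle libraries 1 to 5; the quinpirole libraries, in the same order, gave 2.02, 1.46, 5.997, 4.20 and 3.62. All quinpirole values were below the vehicle median, and the log2 fold change was -0.87 with SE 0.32 (limma adjusted p = 0.333; -1.50 with the muscle covariate). Saa2 averaged 1.67 ± 1.02 and 0.997 ± 0.598 CPM, on 3 to 24 reads per library, for a difference of -0.38 on the log2 scale (limma adjusted p = 0.646), which was -0.75 by edgeR on recovered reads and -0.20 without vehicle replicate 4. It reached 1 CPM in exactly the 5 libraries the filter asks for. Saa1 and Saa2 share part of their sequence, so some reads could be exchanged between them, which was not tested. The sum of the pair was therefore also taken: 13.4, 4.42, 5.90, 9.25 and 10.6 CPM in vehicle and 2.62, 1.89, 7.91, 5.47 and 4.39 with quinpirole, with overlapping groups as for Saa1 alone. Albumin, a liver transcript, averaged 4.43 ± 1.22 and 5.76 ± 3.64 CPM in the same libraries.

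**Figure D3:**
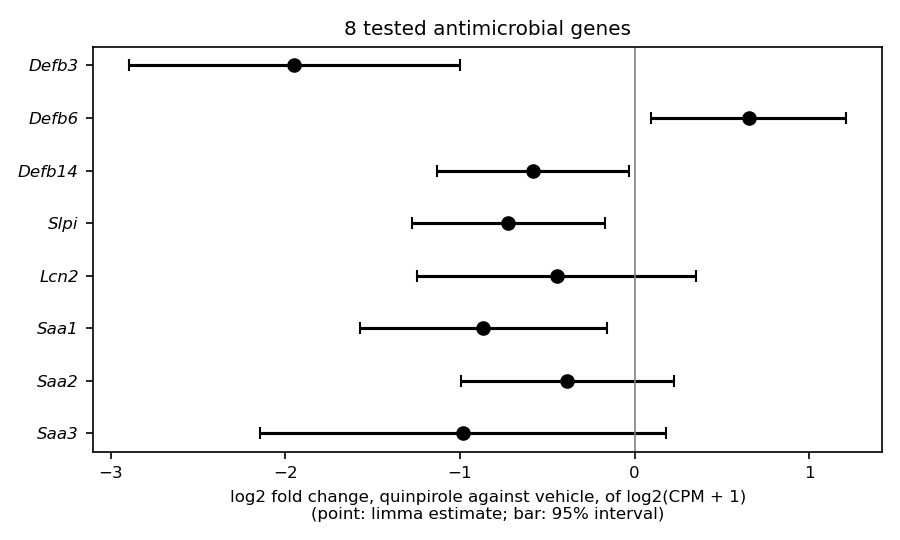
Log2 fold change between quinpirole and vehicle for the 8 tested genes on the scale of log2(CPM + 1); points are limma estimates and bars 95% intervals (n = 5 libraries per group). Defb6 lies to the right of 0 and the other 7 to the left, and no gene passed the adjusted threshold.

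Covariation between the genes was taken over the 10 libraries and again with the group means removed. Permutations of these deviations exchanged libraries between the groups and made no allowance for the means removed. Their p-values can therefore be too small. Of 28 pairs of tested genes, 22 had a positive Pearson's r of log2(CPM + 1), with a median of 0.57, and the 6 negative ones all involved Defb6. These 6 include the difference between the groups, in which Defb6 was opposite to the others. For deviations from group means 27 of 28 pairs were positive, with a median of 0.47, and Defb6 was at 0.31 with Defb3 and at -0.10 with Saa3, the single negative pair. After Benjamini-Hochberg adjustment over the 28 pairs, 5 passed by Pearson's r. The set that passed by rho differed. It held Defb3 with Defb14 (rho = 0.842, permutation p = 0.00379, adjusted 0.0265) and Saa1 with Saa2 (rho = 0.855, permutation p = 0.00289, adjusted 0.0265). By r these stood at 0.714 and 0.755 (adjusted permutation p = 0.0712 and 0.0523).

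The closest pair was Defb14 and Slpi, on chromosomes 8 and 2, with r = 0.95 (permutation p = 2e-05, adjusted 5.60e-04) and rho = 0.95 (permutation p = 7e-05, adjusted 0.00196). Without the 2 libraries farthest from the Defb14 median r was 0.90. The relation held within the groups, at r = 0.93 for deviations from the group means (adjusted permutation p = 0.0014).

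Defb3 was correlated with Saa1, at r = 0.84 (permutation p = 0.00303, adjusted 0.0424; rho = 0.76, permutation p = 0.0144, adjusted 0.0577), with r again 0.83 without the 2 farthest libraries. It was correlated with Slpi, at r = 0.80 (permutation p = 0.00572, adjusted 0.0431; rho = 0.88, permutation p = 0.00153, adjusted 0.0214), with r = 0.84 without the 2 farthest. Both relations include the difference between the groups: for deviations from group means r was 0.71 and 0.62, each with an adjusted permutation p of 0.158. The other pairs that passed by r, Defb3 with Saa2 and Saa2 with Saa3, did not pass by rho. Defb3 with Saa2 stood at r = 0.78 (permutation p = 0.00769, adjusted 0.0431) and rho = 0.77 (permutation p = 0.0118, adjusted 0.0551). Saa2 with Saa3 stood at r = 0.78 (permutation p = 0.0073, adjusted 0.0431) and rho = 0.59 (permutation p = 0.0805, adjusted 0.173). Without the 2 farthest libraries these pairs stood at r = 0.56 and 0.29, and they rest in part on those libraries. For deviations from group means their r was 0.83 (adjusted permutation p = 0.0714) and 0.72 (adjusted permutation p = 0.153).

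**Figure D4:**
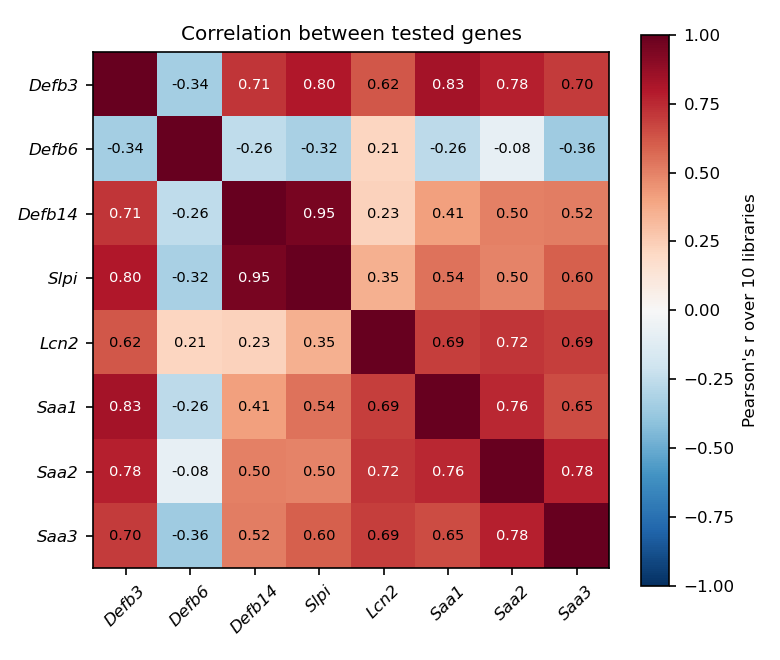
Pearson's r between the 8 tested genes over 10 libraries, on log2(CPM + 1). Defb14 and Slpi form the closest pair at 0.95, and the 6 negative values all lie in the row and column of Defb6; with group means removed 27 of 28 pairs were positive.

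The members were next set beside markers of the cell types in whole skin. This was chosen after the data were seen. It gave 64 relations between 8 genes and 8 marker list means, all adjusted together, and 7 passed by Pearson's r. As for the pairs of members, permutation p-values for deviations from group means can be too small.

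Saa1 followed the stress keratins of wounded and psoriatic epidermis, Krt6a, Krt6b, Krt16 and Krt17. Its r was 0.93 (permutation p = 1.40e-04, adjusted 0.0064), rho was 0.95 (permutation p = 1.20e-04, adjusted 0.00768), and r was 0.81 without the 2 farthest libraries. Within groups, r of deviations was 0.88 (adjusted permutation p = 0.0198). The stress keratins themselves had lower values with quinpirole in 4 of 4 genes, with a summed level of 11490 to 26140 CPM in vehicle and 7888 to 16050 with quinpirole. None of these keratins was at 0 in any library, and none passed the test. Their log2 fold changes ran from -0.96 for Krt6a (limma adjusted p = 0.292) to -0.13 for Krt17 (limma adjusted p = 0.866).

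Saa3 followed the neutrophil markers, at r = 0.92 (permutation p = 2e-04, adjusted 0.0064) and rho = 0.85 (permutation p = 0.00274, adjusted 0.0438), with r = 0.72 without the 2 farthest libraries and 0.89 for deviations from group means (adjusted permutation p = 0.0285). Lcn2 did so at r = 0.79 (permutation p = 0.00353, adjusted 0.0426) and rho = 0.92 (permutation p = 6e-04, adjusted 0.0192), with r = 0.86 without the 2 farthest. Within groups this call was lost, at r = 0.76 for deviations (adjusted permutation p = 0.0816). Lcn2 followed the stress keratins about as closely, at r = 0.76 (permutation p = 0.0152, adjusted 0.108) and rho = 0.87 (permutation p = 0.00232, adjusted 0.0438), with 0.70 without the 2 farthest libraries and 0.75 for deviations (adjusted permutation p = 0.0816). Of 20 neutrophil markers 16 were in the table and 12 were tested, and 9 of the 12 had lower values with quinpirole, with a median log2 fold change of -0.54 and none called. Their summed level was 130 to 332 CPM in vehicle and 131 to 234 with quinpirole, and Trem3, Mpo and Ltf were at 0 in at least 1 library. With the neutrophil marker mean as a covariate, the log2 fold change was -0.16 for Saa3 (limma adjusted p = 0.844), 0.03 for Lcn2 (0.974), -0.06 for Saa2 (0.933) and -1.47 for Defb3 (0.253). It was -0.66 for Saa1 (limma adjusted p = 0.465), -0.57 for Slpi (0.435), -0.46 for Defb14 (0.524) and 0.73 for Defb6 (0.354). The part of neutrophils in these values was not tested.

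Defb6 ran opposite to the hair shaft genes, at r = -0.84 (permutation p = 8.50e-04, adjusted 0.0181; rho = -0.82, permutation p = 0.00572, adjusted 0.0732). It was -0.82 without the 2 farthest libraries and -0.86 for deviations from group means (adjusted permutation p = 0.0363). The hair shaft markers had lower values with quinpirole in 10 of 10 genes, with a median log2 fold change of -1.64 and none called. The r of Defb6 with the muscle markers was 0.72 (permutation p = 0.0195, adjusted 0.114; rho = 0.75, permutation p = 0.0173, adjusted 0.111), and 0.52 for deviations (adjusted permutation p = 0.421). Defb3 with the stress keratins (r = 0.85, permutation p = 0.00211, adjusted 0.0338; rho = 0.78, permutation p = 0.0102, adjusted 0.0935) and Saa3 with the same keratins (r = 0.81, permutation p = 0.00399, adjusted 0.0426; rho = 0.77, permutation p = 0.0123, adjusted 0.0984) passed by r and not by rho. Defb3 stood at r = 0.61 without the 2 farthest libraries, and Saa3 at 0.85. Neither passed for deviations from group means, at 0.73 (adjusted permutation p = 0.105) for Defb3 and 0.75 (adjusted permutation p = 0.0816) for Saa3. Saa2 with the neutrophil markers (r = 0.79, permutation p = 0.00537, adjusted 0.0491; rho = 0.66, permutation p = 0.0438, adjusted 0.255) stood at 0.34 without them and at 0.74 for deviations (adjusted permutation p = 0.0816).

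**Figure D5:**
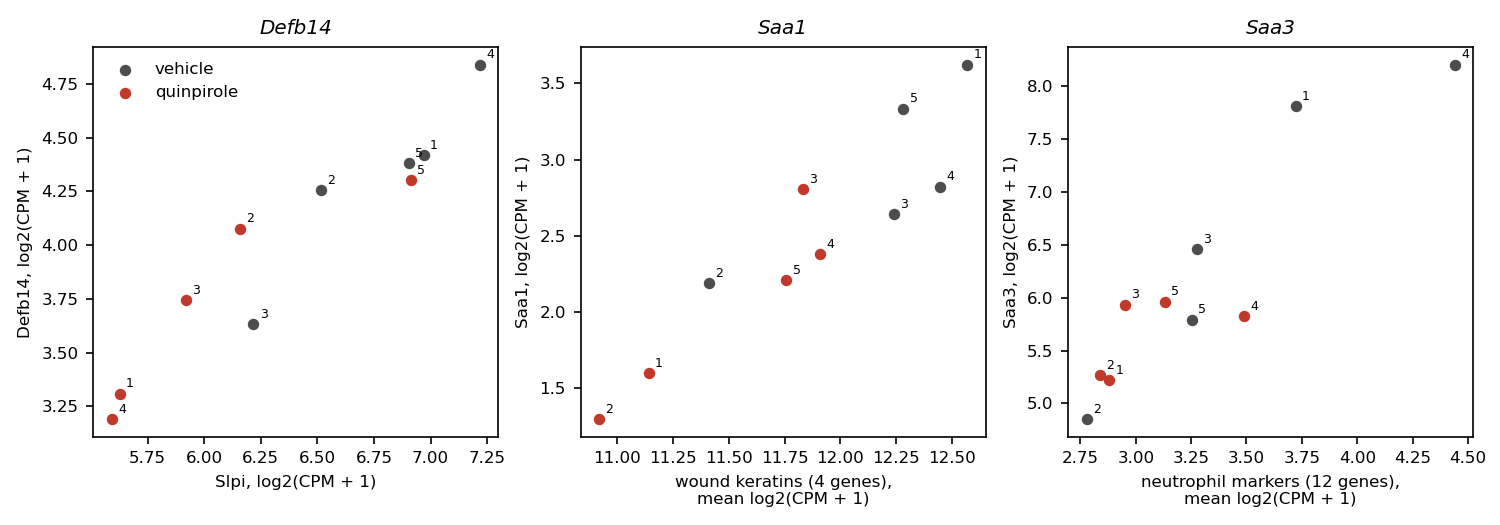
Log2(CPM + 1) of Defb14 against Slpi, of Saa1 against the mean of 4 stress keratins, and of Saa3 against the mean of 12 neutrophil markers; each point is a library with its replicate number. Vehicle replicates 1 and 4 are the 2 highest points for Saa3, and quinpirole replicates 1 and 2 the 2 lowest for Saa1.

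The genes outside the list whose pattern over the 10 libraries was most like each member, by Pearson's r and with no test, differed between members. For Defb3 they were the peroxidase gene Lpo (r = 0.97), the calprotectin subunit S100a9 (0.97) and the kallikrein Klk13 (0.96). For Saa1 they were the bleomycin hydrolase Blmh (0.96), the adhesion receptor Adgrf1 (0.96) and the dynein heavy chain Dnah10 (0.95), and for Saa2 the prostaglandin synthase Ptgs2 (0.93) came first. For both Defb14 (0.99) and Slpi (0.94) Ric8 was among the 3 nearest genes, and Slpi also had Tie1 (0.94) and Egfl7 (0.92), both known from endothelium. For Defb6 they were Ppp3ca, Cox8b and Ankrd12, for Lcn2 Uso1, Abr and Cd3g, and for Saa3 Ppp1r14b, Il18rap and Fam8a1, each at r of at least 0.94.

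Promoters, from 250 bases before to 50 after the start, were available from RefSeq (GRCm38.p6) for 8 of the 10 genes, Defb4 and Defb14 being the others. They were searched on both strands for TTNNGCAA (C/EBP), for TTCNNNGAA (STAT), for TGANTCA (AP-1) and for the kappaB consensus. The C/EBP letters occurred in 7 of the 8, all but Camp, against 10.8% of 32851 promoters of that length. These 7 are not independent, since the promoters of Saa1 and Saa2 were 95.3% identical and those of Defb3 and Defb6 77.5%. The kappaB consensus occurred in 2, Defb6 and, after its start, Camp, against 8.46% of all promoters. The STAT and AP-1 letters were in none of the 8 windows, against 8.3% and 7.81%. The promoters of the 2 oppositely placed defensins and of Saa3 are shown with matches in capitals, which are C/EBP matches in Defb3 and Saa3 and, in this order, C/EBP, kappaB and C/EBP matches in Defb6.
Defb3, chr8:19293111-19293410, plus strand: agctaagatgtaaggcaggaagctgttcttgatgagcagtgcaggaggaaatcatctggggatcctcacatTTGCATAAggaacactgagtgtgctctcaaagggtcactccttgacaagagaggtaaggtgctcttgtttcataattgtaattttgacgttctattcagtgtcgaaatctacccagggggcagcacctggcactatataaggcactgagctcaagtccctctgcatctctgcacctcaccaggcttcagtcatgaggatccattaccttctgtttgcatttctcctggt
Defb6, chr8:19225228-19225527, plus strand: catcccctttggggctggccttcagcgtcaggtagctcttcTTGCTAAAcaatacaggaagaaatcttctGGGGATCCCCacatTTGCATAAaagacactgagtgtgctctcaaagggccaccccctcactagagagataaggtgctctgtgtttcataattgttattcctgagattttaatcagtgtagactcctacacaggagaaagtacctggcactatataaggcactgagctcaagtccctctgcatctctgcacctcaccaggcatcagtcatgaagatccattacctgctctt
Saa3, chr7:46715627-46715926, minus strand: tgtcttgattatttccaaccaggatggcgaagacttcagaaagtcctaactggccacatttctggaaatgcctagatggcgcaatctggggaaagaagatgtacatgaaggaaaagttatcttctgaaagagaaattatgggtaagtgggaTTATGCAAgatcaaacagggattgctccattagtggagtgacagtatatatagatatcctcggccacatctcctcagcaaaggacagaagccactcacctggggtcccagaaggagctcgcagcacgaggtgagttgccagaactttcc
A match is a string of letters in this window and does not show binding.

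Other antimicrobial genes of skin were followed in a list of 44, of which 30 were in the table and 24 were tested. None was called. Values were higher in 11 and lower in 13, around a median log2 difference of -0.06. Those with the smallest p were all lower: S100a7a, the mouse psoriasin relative, at -2.11 (limma adjusted p = 0.0839), the peptidoglycan-binding Pglyrp4 at -1.11 (0.229), and S100a9 and S100a8, the calprotectin subunits, at -1.05 (0.26) and -0.98 (0.27). Defb1, a constitutive defensin, averaged 67.6 CPM without quinpirole and 65.5 CPM with it, a log2 fold change of -0.04 (SE 0.23).

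Of 45 upstream genes, the cytokines, receptors and transcription factors that act on this group, 43 were tested and none was called. Values were higher in 22 and lower in 21, with a median log2 fold change of 0.0035. Osm, the cytokine oncostatin M, stood at -1.03 (limma adjusted p = 0.433), Il6st, which encodes the shared receptor chain gp130, at 0.23 (0.465), and the IL-36 cytokine gene Il1f6 at -0.33 (0.568). Of 22 tested genes for proteases that process these peptides and receptors that bind them, 15 had lower values (median -0.12) and none was called. Klk13, a kallikrein of the upper epidermis, was the lowest in p at -1.12 (limma adjusted p = 0.142), from 206 ± 69.2 CPM without quinpirole to 92.4 ± 22.6 CPM with it (SD, n = 5 each).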

How the data were processed

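Total RNA of whole skin was depleted of ribosomal RNA and made into directional libraries, per the labels' protocols. Trimmomatic 0.38, RSEM 1.3.0, Bowtie2, edgeR and the build mm10 are listed, without roles, in the submitters' processing notes. The gene annotation is not given in the sources used here. The authors deposited a normalised signal per gene and library. Each value was a whole multiple of its column's smallest (100% within 1e-06 of a read), so reads were recovered, and the values equal CPM on edgeR TMM library sizes. RSEM can divide reads between similar genes. No library repeated another: within groups the chi-square per gene was at least 6.55, and counting noise alone gives about 1. Quinpirole replicate 4 was the least like its group, at 31.7 to 45.2 with the others, which stood at 6.55 to 21.6 among themselves. Vehicle pairs stood at 8.67 to 26.7. Within its group that library was highest for Defb6 and Lcn2 and lowest for Defb14 and Slpi.

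Genes with at least 1 CPM in at least 5 libraries (14548) were tested as log2(CPM + 1) with limma 3.58.1 (mean-variance trend, R 4.3.3), two-sided, without covariates, with Benjamini-Hochberg adjustment and a threshold of 0.05. On simulated counts for this comparison (14412 genes tested) recovery was 69.5% for 2-fold and 95.5% for 4-fold changes, and 3.38% of calls were false. Each gene was simulated independently, without the variation that the real libraries share across many genes. These rates therefore check the procedure and do not give its recovery or false calls in the real libraries. Correlations used 100000 permutations and genes below the filter an exact permutation test. Alternatives covered pseudocounts, filters, scaling, edgeR 4.0.16 and DESeq2 1.42.0 on recovered reads, the replicate block, covariates and leaving out libraries. Members and lists were chosen with earlier results of these data known. Named genes are all members, up to 4 genes with the smallest p per list, the most abundant marker of a list, and the 3 most alike genes per member. Defb1, set beside the other defensins, was chosen outside this rule. Lengths and positions came from GENCODE M21 and promoters from RefSeq. Figures used matplotlib 3.10.9.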

Additional observations from a re-analysis of the deposited data

Results flagged for a closer look

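Lcn2 in quinpirole replicate 4 stood apart from the rest of its group, at 341 CPM against 110 to 145 in the other quinpirole libraries, by Dixon's ratio on the log2 scale. In 20 such groups (10 genes in 2 groups) chance marks about 1. The same library had the highest summed neutrophil markers of its group, at 234 CPM against 131 to 164, and the highest muscle markers, and their part in the Lcn2 value was not tested.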

How the results depend on the processing

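The count of 3 genes called over all tested was 5 with a pseudocount of 0.1, 6 with no filter, 5 with library totals only, 9 with no trend, 5 by edgeR, 219 by DESeq2 and 8 with the hair shaft covariate. It was 0 with the neutrophil, keratinocyte or muscle covariate and without both libraries numbered 4 (the last 2 added after the data were seen), and between 0 and 10 without single libraries. The count of members called was 0 in all settings apart from DESeq2, where it was 1, Defb3. The median log2 fold change of tested members was -0.31 with the neutrophil covariate. The sign of each member was kept in every alternative run apart from Lcn2 with the neutrophil covariate, at 0.0303. The 5 correlated pairs of members were 2 with library totals only, 1 with quantile normalisation, 1 for deviations from group means, and 1 to 11 without single libraries. Causes were not tested.

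Same-numbered libraries did not pair: their deviations from group means had correlations of 0.22, -0.238, 0.194, 0.127 and 0.0951, and for 1 of the 5 numbers the libraries correlated best with each other. With the replicate block 0 genes were called. Saa2, Defb4 and Camp are limited by depth: Saa2 had a log2 fold change of -0.65 with a pseudocount of 0.1 and -0.15 with 5, and Saa1 -0.50 with 5.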
